A study of Mus musculus with 30 samples.

Results

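Genes of the canonical Wnt pathway, namely Lef1, Tcf7, Axin2, Ctnnb1 and Apc, were followed through arrested stages of early mouse B cell development. They were found on the expression arrays by the gene name of the probe, which gave 5 of the 27845 gene names and 15 of the 41174 probes, and on the chromatin side by every listed peak within 100 kb of the span of a gene's probes (build mm8), which gave 337 of the 323966 peaks in 24 lists. RNA came from 3 cell types of strain C57BL/6 with 2 samples each. E2A-/- pre-pro-B cells lack E2A, the basic helix-loop-helix factor that opens the B lineage programme, EBF-/- pre-pro-B cells lack the factor EBF1, which acts beside E2A, and RAG1-/- pro-B cells lack the recombinase that cuts antigen receptor genes. The pre-pro-B cells of both genotypes were kept on a layer of S17 stroma in IL-7, SCF and FLT3 ligand. The pro-B cells instead came from B220-selected marrow and had 10 d in IL-7 plus SCF, so genotype and culture cannot be told apart wherever RAG1-/- cells are compared. On the chromatin side, EBF-/- and RAG1-/- cells had lists for E2A, H3K4me1, H3K4me2, H3K4me3, H3K27me3 and H3K9/14ac, and RAG1-/- cells also for EBF1, FOXO1 and CTCF. Retroviral E2A fused to an estrogen receptor domain, which tamoxifen activates, was put into E2A-/- pre-pro-B cells and into the E2A-deficient T cell line A12. The fusion was full length (E47-ER, lists for E2A and H3K4me1) or without its transactivation domains (bHLH-ER, H3K4me1 only), and carriers were selected by a surface tag. Tamoxifen at 1 µM followed 21 h of culture and lasted 1 or 6 h for E47-ER in E2A-/- cells. It lasted 6 h for bHLH-ER and for all A12 lists. The E2A peaks of A12 cells below are thus from 6 h of E47-ER. The last list was a mock immunoprecipitation from wild-type lymphoid cells.

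In the canonical pathway, a Wnt ligand that binds a Frizzled and LRP receptor pair halts the destruction complex, in which the scaffolds APC and AXIN hold β-catenin (the product of Ctnnb1) for phosphorylation and decay. Spared β-catenin enters the nucleus and joins the DNA-binding factors TCF1 (the product of Tcf7) and LEF1, which otherwise recruit Groucho/TLE corepressors. Axin2 is itself a widely used target of β-catenin and feeds back on the pathway, LEF1 is known for its part in the growth of early B cells, and TCF1 is known for its part in T cell development.

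Samples of one group were not always alike. B-lineage marker genes were well above background for 12 of 12 genes in E2A-/- replicate 1 (median log2 signal 10.73) and for 3 of 12 in replicate 2 (median 4.14), beside medians of 5.34 and 5.50 in EBF-/- and 15.08 and 14.89 in RAG1-/- cells. E2A-/- replicate 1 shared its array, in the other dye, with RAG1-/- replicate 1. Counts of genes well above background also depend on the sample. The lowest signal so marked was 6.86 in E2A-/- replicate 2 and 6.25 in EBF-/- replicate 1, which shared an array. In the other samples it lay between 3.92 and 5.21. The EBF-/- samples, with near-equal medians, thus had 4 and 9 of the 12 B-lineage genes well above background. Of the other cell types the cultures could hold, the median of 11 T-lineage genes lay between 5.72 and 9.43 over the 6 samples, that of 8 NK genes between 3.98 and 7.86, and that of 10 stromal genes between 3.81 and 5.50. The summed level of the stromal genes was highest in EBF-/- cells, at 13.01 and 12.84 on the log2 scale, against 9.39 and 9.55 in E2A-/- and 9.24 and 9.87 in RAG1-/- cells. Pdgfrb, a growth factor receptor gene of mesenchymal cells, held most of the sum in EBF-/- cells (12.96 and 12.75, and from 7.60 to 8.06 in the others), while the collagen gene Col1a1 was not well above background in any sample. The median of 9 myeloid genes was highest in E2A-/- cells, at 11.82 and 12.12, then 9.03 and 8.96 in EBF-/-, then 8.34 and 7.96 in RAG1-/- cells. Their summed level differed between the RAG1-/- samples, at 12.17 and 15.60, where Mpo, the gene of myeloperoxidase, read 9.15 and 14.59 and the lysozyme gene Lyz2 11.08 and 14.49. The part of these cells in the changes below was not tested. The transcript of Tcf3, the E2A gene, gave 10.80 and 9.44 in E2A-/- cells, 13.41 and 13.39 in EBF-/- cells and 14.99 and 14.70 in RAG1-/- cells at the brighter of 2 probes. The brighter of the Ebf1 probes was at 6.94 and 5.39 in E2A-/-, then 10.86 and 10.89 in EBF-/-, then 12.56 and 12.39 in RAG1-/- cells, and the other read 4.54 and 3.41, not well above background, in EBF-/- cells. Rag1 read 10.54 and 11.12 in RAG1-/- cells. The sources do not place these probes against the deleted parts, so they check no label. In bulk RNA, a change in the share of cells and a change of RNA per cell cannot be told apart.

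Values below are normalised log2 signals of single probes, so the level of one probe is not set against that of another, and replicate 1 is given first. Only probes that both samples of some group measured well above background were kept. A kept probe was called when its limma p, adjusted by the Benjamini-Hochberg method over 22132 probes, was under 0.05. Changes carry the standard error of the fit (SE, n = 2 per group), and for a probe that was not well above background in both samples of a group, that group's level is only bounded. Such a change is written "at least N-fold", the mean of the brighter group against the higher of the dim probe's own signal and the lowest well-measured signal of each sample, and it holds for the processed signals with quantile scaling.

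Of the 12 kept probes of the 5 genes, 3 were called in EBF-/- against E2A-/- cells, where 20.8% of all kept probes were called. In RAG1-/- against EBF-/- cells 7 of 12 were called against 38.7% of all kept probes, and in RAG1-/- against E2A-/- cells 5 of 12 against 40.4%. Those 2 comparisons share the RAG1-/- samples. The nuclear factors Lef1 and Tcf7 and the feedback scaffold Axin2 held the large changes, β-catenin changed little, and none of the Apc probes was called. In RAG1-/- against EBF-/- cells Lef1 and Axin2 were higher and Tcf7 lower. In limma fits without an EBF-/- sample, fewer member probes were called in both comparisons with EBF-/- cells. The lowest counts over all kept probes in these comparisons also came without an EBF-/- sample. Fewer member probes were also called in RAG1-/- against EBF-/- cells without RAG1-/- replicate 1. The same was seen in RAG1-/- against E2A-/- cells without either RAG1-/- sample. Such fits leave 1 sample in a group, and the drop is not read as a trait of the members.

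**Figure D1:**
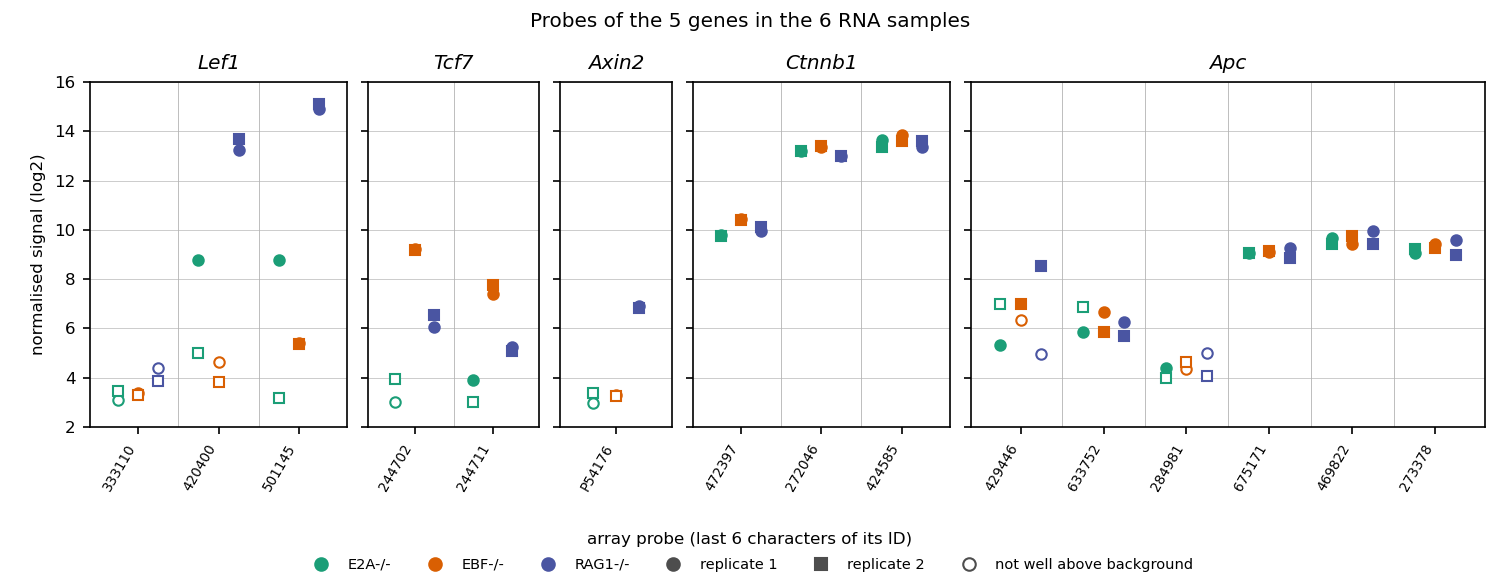
Each point is the normalised log2 signal (vertical axis) of 1 array probe (horizontal axis) in 1 sample, with colour for the cell type, shape for the replicate and open symbols for signals not well above background. Lef1 at its brightest probe stood at 14.89 and 15.11 in RAG1-/- cells, Tcf7 was highest in EBF-/- cells (9.23 and 9.19), and the 3 Ctnnb1 probes differed by at most 0.69 between any of the 6 samples.

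Ctnnb1, the gene of β-catenin, was read by 3 probes on chromosome 9. The probe A_52_P472397 (chr9:120804855-120804914) gave 9.80 and 9.74 in E2A-/-, then 10.43 and 10.41 in EBF-/-, then 9.94 and 10.12 in RAG1-/- cells. The 3 groups did not overlap, with EBF-/- cells highest. It was 0.65 higher in EBF-/- than in E2A-/- cells (SE 0.10, limma adjusted p = 0.0200) and 0.39 lower in RAG1-/- than in EBF-/- cells on the log2 scale (log2 change -0.39, SE 0.11, limma adjusted p = 0.0453). A_51_P272046, averaged over 10 spots, gave 13.21 and 13.19, then 13.35 and 13.38, then 12.99 and 12.99 in the same order of groups. Again EBF-/- cells were highest and no group overlapped another, and the drop from EBF-/- to RAG1-/- cells was called (log2 change -0.37, SE 0.07, limma adjusted p = 0.0188). The probe A_52_P424585 gave 13.65 and 13.35 in E2A-/-, then 13.84 and 13.60 in EBF-/-, then 13.34 and 13.62 in RAG1-/- cells, where the groups overlapped and no comparison was called. The first probe's call in EBF-/- against E2A-/- cells was lost without either E2A-/- sample (limma adjusted p = 0.151 without replicate 1 and 0.153 without replicate 2) or either EBF-/- sample (0.178 and 0.203). In RAG1-/- against EBF-/- cells its adjusted p was between 0.0619 and 0.313 in limma fits that left out any sample other than RAG1-/- replicate 2, and that of A_51_P272046 between 0.0609 and 0.186 without any 1 of the 4 E2A-/- and EBF-/- samples. The call of A_52_P472397 there was also lost without the filter on dim probes (limma adjusted p = 0.0567) and, with that of A_51_P272046, without the trend in the prior (0.0727 and 0.0671).

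Apc, the large scaffold of the destruction complex, was read by 6 probes on chromosome 18, of which 4 were kept. The brightest, A_51_P469822 (chr18:34443307-34443366), gave 9.66 and 9.42 in E2A-/-, then 9.43 and 9.73 in EBF-/-, then 9.96 and 9.43 in RAG1-/- cells. All 3 groups overlapped. A_52_P675171, over 10 spots, read between 8.87 and 9.25 in the 6 samples, with the RAG1-/- samples at both ends of that range. The fitted changes of these probes ran from -0.06 to 0.15 over the 3 comparisons, with SE from 0.15 to 0.21, and those of the other kept probes from -0.32 to 0.23. None of these was called by limma, with adjusted p from 0.472 to 0.954. That does not show that Apc was unchanged. The probes A_51_P429446 and A_52_P284981 were not well above background in both samples of any group and were not tested.

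Lef1, the gene of the TCF-family factor LEF1, was the member with the widest range. At its brightest probe A_51_P501145 (chr3:131213273-131213332) the signal was 8.77 and 3.16 in E2A-/-, then 5.39 and 5.37 in EBF-/-, then 14.89 and 15.11 in RAG1-/- cells. E2A-/- replicate 2 and EBF-/- replicate 1 were not well above background. These samples had the highest limits for that mark (6.86 and 6.25), so 5.39 lacked it while 5.37 in EBF-/- replicate 2 had it. Both RAG1-/- samples lay far above all the others, while the E2A-/- samples lay on either side of the EBF-/- samples. The probe was 9.48 higher in RAG1-/- than in EBF-/- cells (SE 1.45, limma adjusted p = 0.00951) and 8.96 higher than in E2A-/- cells (SE 1.42, limma adjusted p = 0.00977), changes whose size rests partly on dim samples. Against EBF-/- cells the limma adjusted p was 0.0518 without EBF-/- replicate 1, with a change of 8.12. After normexp background correction (offset 50) in place of the processed signals, the changes were 7.82 and 7.13 on the log2 scale (limma adjusted p = 0.000373 and 0.000376).

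For another Lef1 probe, A_51_P420400, the array file gives the wider position chr3:131194088-131212249. It gave 8.78 and 4.99 in E2A-/-, then 4.65 and 3.81 in EBF-/-, then 13.22 and 13.69 in RAG1-/- cells. No group overlapped another, and neither EBF-/- sample nor E2A-/- replicate 2 was well above background. Lef1 at this probe was at least 212-fold higher in RAG1-/- than in EBF-/- cells (limma adjusted p = 0.00277) and 6.53 higher on the log2 scale than in E2A-/- cells (SE 0.83, limma adjusted p = 0.00516). The fitted change against EBF-/- cells was 9.14, and after normexp background correction it was 6.08 (limma adjusted p = 0.000488). The third probe, A_52_P333110, at the 5′ end of the span, read between 3.09 and 4.38 and was not well above background in any sample.

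Between the E2A-/- samples, replicate 1 read 8.77 and 8.78 at these probes and replicate 2 read 3.16 and 4.99. B-lineage markers moved the same way: Cd79a, a B cell receptor signalling chain, read 5.61 and 3.15, and Pax5, the factor of B cell commitment, 9.37 and 6.83. The part of these markers in the Lef1 signal was not tested. EBF-/- against E2A-/- cells was not called at either probe (log2 change -0.52, SE 1.42, limma adjusted p = 0.845, and log2 change -2.61, SE 0.83, limma adjusted p = 0.0957), and the second change was -0.79 after normexp background correction (0.327). Without E2A-/- replicate 1, the fitted log2 change at the brightest probe was 2.16. It rests on the dim signal of E2A-/- replicate 2 (3.16), whose lowest well-measured signal was 6.86. The EBF-/- signals, 5.39 and 5.37, lay below that limit, so 2.16 is not a measured difference. Without E2A-/- replicate 2 the change was -3.33, and -4.22 at the other probe. The fitted rise from E2A-/- to RAG1-/- cells at the brightest probe was 6.29 without E2A-/- replicate 2. Without replicate 1 it was 11.78, a size that rests on the same dim signal.

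Tcf7, the gene of TCF1, had a different order. At A_52_P244702 (chr11:52096035-52096094, minus strand) the signal was 3.00 and 3.94 in E2A-/-, then 9.23 and 9.19 in EBF-/-, then 6.06 and 6.53 in RAG1-/- cells, with both E2A-/- samples not well above background. EBF-/- cells were highest, RAG1-/- cells lay between, E2A-/- cells were lowest, and no groups overlapped. Tcf7 was at least 14.1-fold higher in EBF-/- than in E2A-/- cells (limma adjusted p = 0.00379) and lower in RAG1-/- than in EBF-/- cells (log2 change -2.89, SE 0.42, limma adjusted p = 0.00833). It was at least 1.86-fold higher in RAG1-/- than in E2A-/- cells (limma adjusted p = 0.00766). The other probe, A_52_P244711, kept the order, with 3.92 and 3.03 in E2A-/-, then 7.38 and 7.77 in EBF-/-, then 5.25 and 5.09 in RAG1-/- cells. E2A-/- replicate 2 was not well above background here, and 3.92 was the lowest well-measured signal of replicate 1. Both RAG1-/- signals lay below the lowest well-measured signal of E2A-/- replicate 2 (6.86). The order of E2A-/- and RAG1-/- cells and the size of changes from E2A-/- cells thus rest partly on dim signals. Its 3 changes were 4.11 (SE 0.47, limma adjusted p = 0.00903), -2.44 (SE 0.48, 0.0190) and 1.67 (SE 0.47, 0.0481). The sizes depended on the background correction. After normexp correction the log2 changes at A_52_P244702 were 2.60, -1.87 and 0.73 in the same order (limma adjusted p = 0.000339, 0.000317 and 0.00723), where the fit reported above gave 5.72, -2.89 and 2.83. At A_52_P244711 they were 1.42, -1.10 and 0.33, and the last was not called (limma adjusted p = 0.154).

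The fall of Tcf7 from EBF-/- to RAG1-/- cells at A_52_P244702 had a limma adjusted p of 0.0805 without EBF-/- replicate 1 (log2 change -2.77), 0.0693 without EBF-/- replicate 2 (-3.01) and 0.0508 after scaling each channel to its 75th percentile (-2.85). At A_52_P244711 the rise in EBF-/- over E2A-/- cells had adjusted p = 0.0839 and 0.111 in limma without either EBF-/- sample. There its fall to RAG1-/- cells had limma adjusted p = 0.0659, 0.0950, 0.100 and 0.182 without RAG1-/- replicate 1 and 2 and EBF-/- replicate 1 and 2, in that order. Its call in RAG1-/- against E2A-/- cells was lost in 5 of 6 limma fits that left out a sample, with adjusted p from 0.113 to 0.220 in those 5. That call was also lost after 75th percentile scaling (log2 change 1.10, limma adjusted p = 0.0856), without the filter on dim probes (1.67, 0.184) and without the array block (1.69, 0.0536), and the fall to RAG1-/- cells was lost without the filter (-2.44, 0.0847). The T-lineage markers, whose part in the Tcf7 signal was not tested, had medians of 8.45 and 8.60 in E2A-/-, then 9.17 and 9.43 in EBF-/-, then 5.72 and 5.80 in RAG1-/- cells. Of 11 such genes, 8 and 7 were well above background in E2A-/- cells, 7 and 9 in EBF-/- cells and 6 in each RAG1-/- sample. Their summed level was 11.92 and 12.38 in E2A-/-, then 15.27 and 15.25 in EBF-/-, then 13.60 and 13.66 in RAG1-/- cells on the log2 scale. NK markers had their highest medians in EBF-/- cells too, 7.77 and 7.86.

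Axin2 was read by 1 probe, A_52_P54176 (chr11:108766756-108766815). It gave 2.98 and 3.37 in E2A-/-, then 3.32 and 3.27 in EBF-/-, then 6.90 and 6.81 in RAG1-/- cells, and only the RAG1-/- samples were well above background. RAG1-/- cells stood clear of both other groups, which overlapped. Axin2 was at least 2.18-fold higher in RAG1-/- than in EBF-/- cells (fitted log2 change 3.57, SE 0.54, limma adjusted p = 0.00910) and at least 2.75-fold higher than in E2A-/- cells (fitted log2 change 3.69, SE 0.53, limma adjusted p = 0.00722). After normexp background correction the log2 changes were 1.03 and 1.20 (limma adjusted p = 0.00603 and 0.00292). Against EBF-/- cells the limma adjusted p was 0.151 without RAG1-/- replicate 1, 0.160 without RAG1-/- replicate 2, 0.0644 without EBF-/- replicate 1, 0.0762 without EBF-/- replicate 2 and 0.0687 after 75th percentile scaling. Against E2A-/- cells it was 0.149 without RAG1-/- replicate 1 and 0.136 without RAG1-/- replicate 2. Over the fits that left out 1 sample, which had fewer samples, the log2 change stayed between 3.43 and 3.70 against EBF-/- cells and between 3.50 and 3.86 against E2A-/- cells.

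The genes whose signals followed a member most closely over the 6 samples were named by the root mean square (RMS) difference of centred log2 signals among 14638 other genes. For Lef1 they were Mpzl2 (RMS 0.61), Bst1 (0.73), Alpl (0.75), Clgn (0.80) and Igll1 (0.83), against a median of 4.68 over all genes. Igll1, a surrogate light chain gene, read 11.14 and 4.34 in E2A-/-, then 5.24 and 5.41 in EBF-/-, then 15.95 and 15.76 in RAG1-/- cells, with the same gap between the E2A-/- samples. For Tcf7 the nearest with a gene symbol were Rasgef1a (0.43), Wwc2 (0.44), Fam217b (0.46) and Lair1, an inhibitory receptor of leukocytes (0.53), after the transcript ENSMUST00000075784 (0.21), against a median of 2.41. For Axin2 they were Ccdc125 (0.09), Slamf1 (0.10), Zfpm1 (0.16), Ppfibp1 (0.17) and Prss23 (0.18), against a median of 1.72. In E2A-/- and EBF-/- cells Axin2 was not well above background. There Ccdc125, Slamf1 and Prss23 read from 2.86 to 3.63, below the lowest well-measured signal of any sample (3.92). Their closeness there is one of dim signals. Genes named as the nearest of 14638 are close by selection, and no test was made. Slamf1, a receptor of the SLAM family, read 3.07 and 3.63, then 3.57 and 3.28, then 6.99 and 7.08 in E2A-/-, EBF-/- and RAG1-/- cells.

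Lists by role placed the members among 107 other genes of the pathway, of which 69 had a kept probe, each gene being read by its brightest one. In EBF-/- against E2A-/- cells 16 were higher and 7 lower, where 23.0% of all genes were called. In RAG1-/- against EBF-/- cells 12 were higher and 21 lower against 41.1% of all genes, and in RAG1-/- against E2A-/- cells 15 were higher and 16 lower against 43.8%. The median log2 change over the listed genes was 0.07, -0.06 and 0.06 in these comparisons, beside -0.01, 0.06 and 0.04 over all genes. Without either EBF-/- sample, limma called fewer listed genes in both comparisons with EBF-/- cells, where counts over all kept probes were lowest too. Fewer listed genes were also called in EBF-/- against E2A-/- cells without either E2A-/- sample. The same was seen in RAG1-/- against E2A-/- cells without E2A-/- replicate 2.

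Among 8 measured ligands and their helpers, 2 were higher in EBF-/- than in E2A-/- cells and none lower, where 23.0% of all genes were called. From EBF-/- to RAG1-/- cells 2 rose and 3 fell, against 41.1% of all genes. In RAG1-/- against E2A-/- cells 1 was higher and 3 lower, against 43.8%. Wls, the carrier that brings Wnt proteins to the cell surface, read 3.86 and 3.42 in E2A-/-, then 9.04 and 8.94 in EBF-/-, then 11.88 and 11.54 in RAG1-/- cells. It rose with each group, at least 12.1-fold from E2A-/- to EBF-/- cells (limma adjusted p = 0.00214) and by 2.71 on the log2 scale from there to RAG1-/- cells (SE 0.23, 0.00238). Wnt10b, a Wnt ligand, read 9.07 and 8.92 in E2A-/-, then 8.92 and 8.92 in EBF-/-, then 3.96 and 4.52 in RAG1-/- cells. It was at least 18.3-fold lower in RAG1-/- than in EBF-/- cells (limma adjusted p = 0.000847) and at least 19.2-fold lower than in E2A-/- cells (0.000612). The ligand gene Wnt10a was highest in EBF-/- cells (8.87 and 8.97) and lowest in RAG1-/- cells (3.16 and 4.30), at least 18.3-fold apart (limma adjusted p = 0.00257). Rspo1, a secreted enhancer of Wnt signals, was at least 7.42-fold lower in RAG1-/- than in E2A-/- cells (limma adjusted p = 0.00473), and the ligand Wnt7b was 0.55 higher in RAG1-/- than in EBF-/- cells (SE 0.15, 0.0456).

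Of 12 measured receptors, none rose and 1 fell from E2A-/- to EBF-/- cells, where 23.0% of all genes were called. From there to RAG1-/- cells 3 rose and 1 fell, against 41.1% of all genes. In RAG1-/- against E2A-/- cells 5 were higher and 2 lower, against 43.8%. Lgr5, the R-spondin receptor known from stem cells, read 6.39 and 3.13 in E2A-/-, then 3.13 and 3.14 in EBF-/-, then 11.37 and 10.33 in RAG1-/- cells, so it stood clear in RAG1-/- cells and differed between the E2A-/- samples as Lef1 did. It was at least 34.8-fold higher in RAG1-/- than in EBF-/- cells (limma adjusted p = 0.00742). The Frizzled receptor gene Fzd6 was at least 3.82-fold higher in RAG1-/- than in E2A-/- cells (limma adjusted p = 0.00740), while another, Fzd2, at 9.22 and 9.24 in E2A-/- cells, fell to 6.37 and 5.68 in EBF-/- (log2 change -3.17, SE 0.40, limma adjusted p = 0.0115) and to 6.35 and 5.50 in RAG1-/- cells (log2 change -3.27, 0.00483). The coreceptor Lrp5 was lower in RAG1-/- than in E2A-/- cells (log2 change -1.35, SE 0.19, limma adjusted p = 0.00745).

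Among 7 measured antagonists, 2 rose and 1 fell from E2A-/- to EBF-/- cells, where 23.0% of all genes were called. From there to RAG1-/- cells 1 rose and 3 fell, against 41.1% of all genes (median log2 change -1.65, beside 0.06 over all genes). In RAG1-/- against E2A-/- cells 2 were higher and 2 lower, against 43.8%. Frzb and Sfrp2, secreted Wnt-binding proteins, were highest in EBF-/- cells, at 7.30 and 6.70 and at 7.65 and 7.48. From EBF-/- to RAG1-/- cells they were at least 4.83-fold and 7.01-fold lower (limma adjusted p = 0.00734 and 0.0176). The stromal marker sum, most of it Pdgfrb, was highest in EBF-/- cells too, and its part in these changes was not tested. The median of the stromal genes was 4.36 and 4.32 in EBF-/- cells. It was 4.46 and 5.50 in E2A-/- and 3.81 and 5.35 in RAG1-/- cells. Rnf43 and Znrf3, ubiquitin ligases that remove Frizzled receptors, were lower in RAG1-/- than in E2A-/- cells (log2 change -3.31, SE 0.41, limma adjusted p = 0.00476, and -1.22, SE 0.18, 0.00837). Kremen1, a receptor for DKK antagonists, was 1.51 higher in RAG1-/- than in EBF-/- cells (SE 0.21, limma adjusted p = 0.00751). Dkk3 was at least 1.05-fold higher in RAG1-/- than in E2A-/- cells (limma adjusted p = 0.0481).

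All 22 cytoplasmic genes were measured, and 7 rose and 1 fell from E2A-/- to EBF-/- cells, where 23.0% of all genes were called. From there to RAG1-/- cells 3 rose and 6 fell, against 41.1% of all genes. In RAG1-/- against E2A-/- cells 5 were higher and 4 lower, against 43.8%. Frat2 and Frat1, inhibitors of the kinase GSK3, fell from EBF-/- to RAG1-/- cells (log2 change -2.32 and -2.24, SE 0.09 each, limma adjusted p = 0.000566 and 0.000661). Csnk1e, a casein kinase, was highest in E2A-/- (14.00 and 14.13), lower in EBF-/- (13.28 and 13.37) and lowest in RAG1-/- cells (12.09 and 12.40), with all 3 comparisons called. Nkd2, which like Nkd1 binds Dishevelled, read 7.03 and 9.30 in RAG1-/- cells and was at least 5.42-fold higher there than in EBF-/- cells (limma adjusted p = 0.00711). Nkd1 was at least 4.73-fold higher in EBF-/- than in E2A-/- cells (limma adjusted p = 0.0285), and Gsk3a was 0.70 higher in RAG1-/- than in EBF-/- cells (SE 0.19, 0.0477).

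Of 16 measured nuclear cofactors and TCF paralogues, 3 rose and 4 fell from E2A-/- to EBF-/- cells, where 23.0% of all genes were called. From there to RAG1-/- cells 3 rose and 6 fell, against 41.1% of all genes. In RAG1-/- against E2A-/- cells 2 were higher and 5 lower, against 43.8%. Tcf7l2, which encodes TCF4, another member of the TCF family, read 9.0 and 9.02 in E2A-/-, then 5.99 and 5.22 in EBF-/-, then 9.61 and 9.94 in RAG1-/- cells. It was low where Tcf7 was high, at least 9.72-fold lower in EBF-/- than in E2A-/- cells (limma adjusted p = 0.00345) and at least 16.5-fold higher in RAG1-/- than in EBF-/- cells (0.00107). The corepressor genes divided in the same 2 comparisons. Tle1 was lower in EBF-/- than in E2A-/- cells and higher in RAG1-/- cells (log2 change -1.45, SE 0.19, limma adjusted p = 0.0122, then 2.02, SE 0.19, 0.00289), whereas Tle2 moved the other way (2.36, SE 0.23, 0.00617, then -2.13, SE 0.23, 0.00393). Tle4 was 0.69 higher in RAG1-/- than in EBF-/- cells (SE 0.08, limma adjusted p = 0.00520). The coactivator Bcl9l and the β-catenin inhibitor Ctnnbip1 were lower in RAG1-/- than in E2A-/- cells (log2 change -1.31, SE 0.13, limma adjusted p = 0.00306, and -1.44, SE 0.15, 0.00294), and Cxxc5 was 1.28 higher (SE 0.09, 0.00139).

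At cell junctions, 2 of 4 measured genes listed as catenin partners rose from E2A-/- to EBF-/- cells, where 23.0% of all genes were called. The same 2 fell from there to RAG1-/- cells, against 41.1% of all genes. None of the 4 was called in RAG1-/- against E2A-/- cells, against 43.8%. The 2 were Cdh1, the gene of E-cadherin (7.70 and 7.62 in EBF-/- cells and at most 3.67 in any other sample), and Jup, the gene of plakoglobin (6.86 and 7.33, and at most 4.68 elsewhere). From EBF-/- to RAG1-/- cells they were at least 7.64-fold and 5.17-fold lower (limma adjusted p = 0.00426 and 0.0114). The stromal marker sum, most of it Pdgfrb, was highest in the same samples, while the stromal median was not. Its part was not tested here either.

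**Figure D2:**
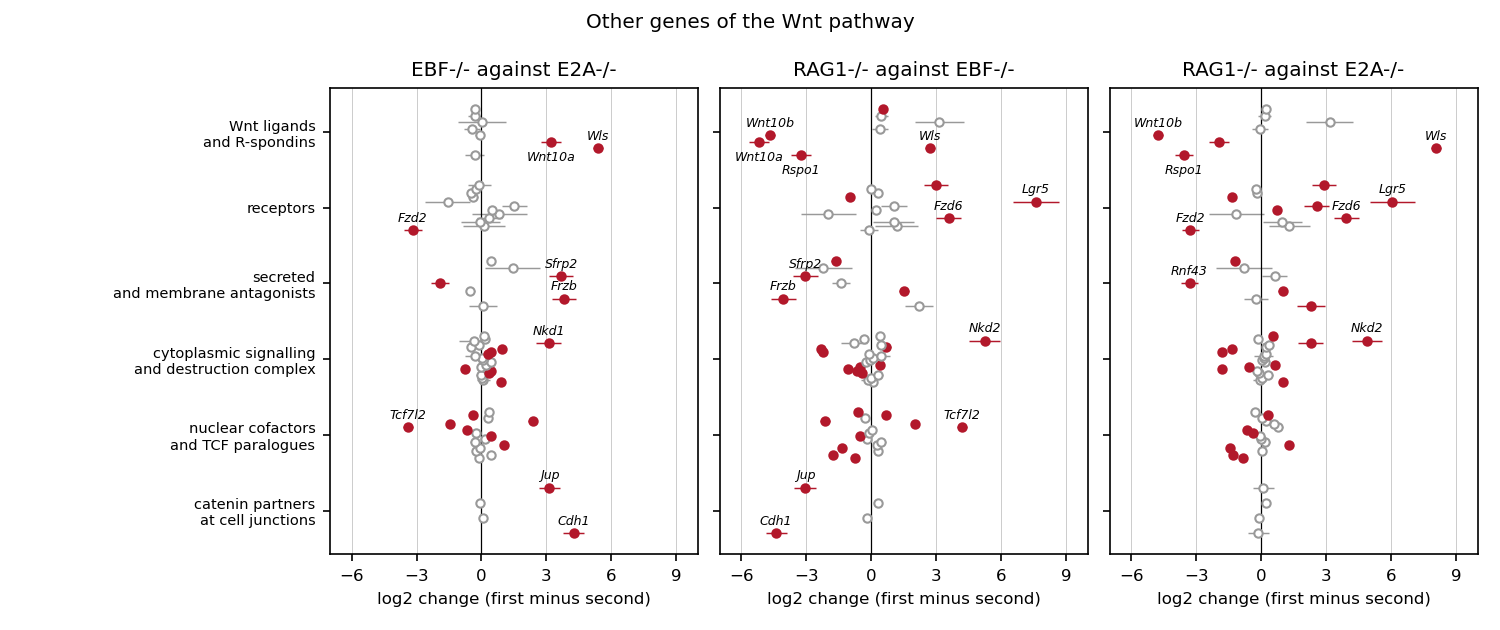
Each point is the fitted log2 change of 1 other Wnt pathway gene (horizontal axis, with its standard error), by list (vertical axis) and comparison (panels), filled where limma called it and labelled for the larger changes of named genes. Changes against a dim group are drawn at their fitted value, without a mark for the bound. In RAG1-/- against EBF-/- cells Lgr5, dim in EBF-/- cells, lies far to the right (7.62). Wnt10b, dim in RAG1-/- cells, lies far to the left there (-4.67). In RAG1-/- against E2A-/- cells they lie at 6.06 and -4.76.

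In the peak lists each library stood alone, so no test was made, and a site without a listed peak is not shown to be unbound. Scores are those the authors deposited, on a scale that no header or label states, and are ranked only within their list. Distances are in kb from the start of the 3′-most probe, negative upstream. Within 100 kb of the members lay 336 peaks besides the mock list, 80 at Lef1, 85 at Tcf7, 27 at Axin2, 59 at Ctnnb1 and 85 at Apc. The windows of Lef1 and Apc were longer, since their probes span 107.0 and 56.5 kb. E2A peaks of EBF-/- cells lay near 4 of 5 members, those of RAG1-/- cells near all 5, as they did near 42.7% and 61.8% of the 27057 placed array genes. Without peaks that overlapped a mock peak, those of EBF-/- cells lay near 3 of 5 members and those of RAG1-/- cells near 5, beside 42.3% and 61.7% of the genes. Of the 20 E2A peaks near members in RAG1-/- cells and the 8 in EBF-/- cells, 3 shared a base, which is 15.0% of the former and 37.5% of the latter, against 17.1% and 44.7% over the whole lists. Of the 8, 1 near Axin2 overlapped a mock peak, and the shared peaks were 42.9% of the other 7.

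Around Lef1, 5 E2A peaks were listed in RAG1-/- cells and none in EBF-/- cells. The one with the highest score, 76, at chr3:131043517-131043716 and -169.7 kb, ranked in the first 0.74% of its list. It coincided with the only FOXO1 peak near any member (score 7) and with an E2A peak of A12 cells (score 35). Over the whole list, 6.4% of the E2A peaks of RAG1-/- cells had a FOXO1 peak within 500 bases and 27.6% an A12 E2A peak. A site inside the gene at -9.1 kb (chr3:131204067-131204266 in RAG1-/- cells) was listed in 4 of the 5 E2A lists, with scores of 16 in RAG1-/- cells, 19 and 7 after 1 and 6 h of E47-ER, and 14 in A12 cells, next to a CTCF peak (score 50). The E47-ER lists of E2A-/- cells held no other E2A peak in the window. A12 cells had 14 E2A peaks there, 3 of them together between -69.4 and -66.1 kb.

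At about -204.5 kb from the 3′-most Lef1 probe RAG1-/- cells had H3K4me2 (score 143), H3K4me3 (77), H3K9/14ac (37) and, at -203.6 kb, H3K4me1 (59), beside an E2A peak (17), while EBF-/- cells had H3K4me2 (30) alone. The nearest array probe, 4.5 kb from that E2A peak, was of A430072C10Rik. Of all H3K4me3, H3K9/14ac, H3K4me1 and E2A peaks of RAG1-/- cells, 66.0%, 80.0%, 12.1% and 17.1% overlapped one of EBF-/- cells. H3K4me1 peaks numbered 11 in RAG1-/- and 3 in EBF-/- cells, in lists of 23054 and 7544, while H3K4me2 peaks numbered 6 and 7. At -113.0 kb EBF-/- cells had H3K4me2 (62), nearest to a probe of BC051212, where RAG1-/- cells had no H3K4me2 peak and their nearest H3K4me1 peak (58) lay at -115.6 kb. A region near -16 kb, from -16.3 to -15.3, carried H3K4me1 in RAG1-/- (45), EBF-/- (21) and all 3 E2A-/- lists (27, 24 and 19). H3K4me2 was listed there in EBF-/- (48) and RAG1-/- cells (32), and H3K9/14ac in EBF-/- cells (22) but not in RAG1-/- cells. Of all H3K4me2 and H3K9/14ac peaks of EBF-/- cells, 62.4% and 74.1% overlapped one of RAG1-/- cells. No H3K4me3 peak was listed between -204.6 and 47.7 kb in either cell type, the latter lying nearest to a probe of Cyp2u1.

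**Figure D3:**
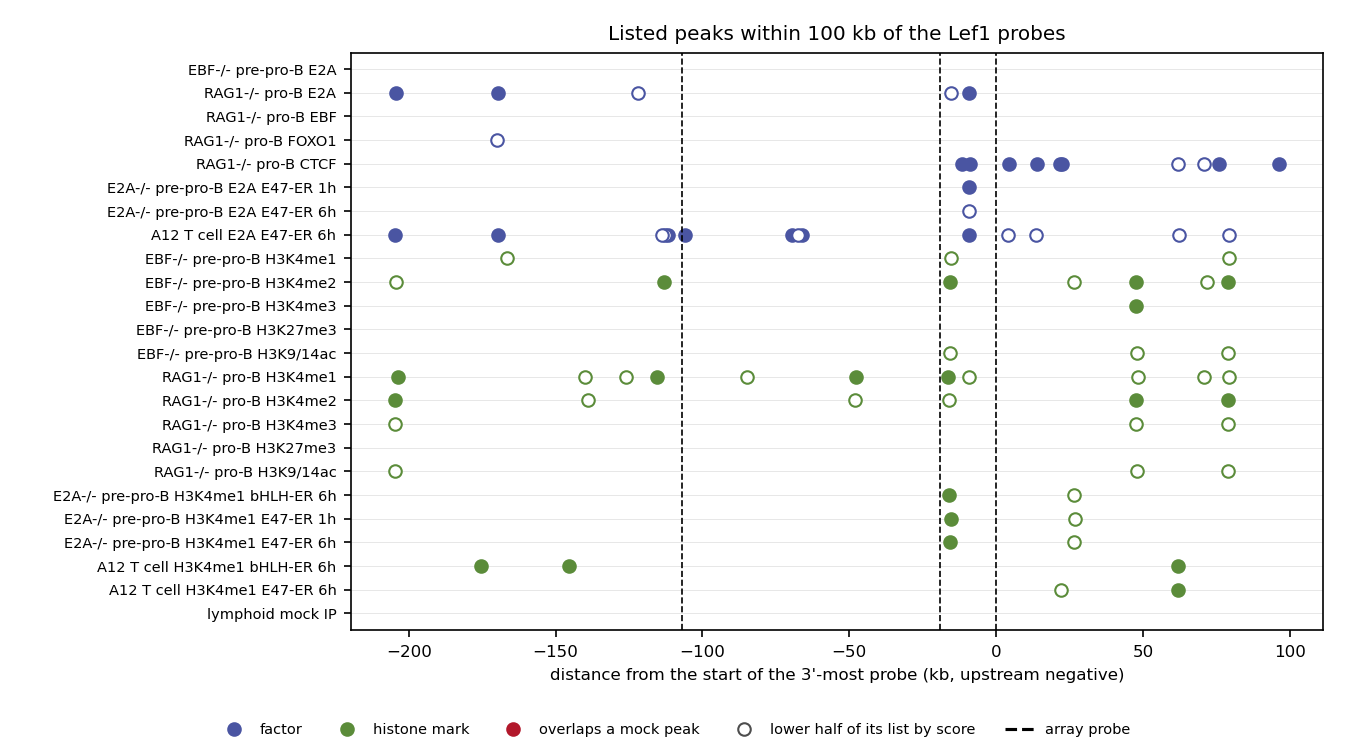
Each circle is a listed peak, placed by its distance from the 3′-most Lef1 probe in kb (horizontal axis) and by its list (vertical axis), open where its score is below the median of its list, with dashed lines at the array probes. E2A peaks are listed in RAG1-/- cells at 5 places and in EBF-/- cells at none, and 4 E2A lists meet at -9.1 kb.

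The Lef1 promoter from RefSeq (GRCm38.p6, chr3:131110047-131110296, plus strand, the first of 4 listed starts) is shown with that of Axin2 because both genes were higher in RAG1-/- cells than in both other groups. The letters CTTTG, the core read by TCF and LEF proteins, the E-boxes CAGCTG and CAGGTG, the FOXO letters GTAAACA and the EBF letters CCCNNGGG were searched on both strands in the 250 bases before the start. Capitals mark the matches.
Lef1: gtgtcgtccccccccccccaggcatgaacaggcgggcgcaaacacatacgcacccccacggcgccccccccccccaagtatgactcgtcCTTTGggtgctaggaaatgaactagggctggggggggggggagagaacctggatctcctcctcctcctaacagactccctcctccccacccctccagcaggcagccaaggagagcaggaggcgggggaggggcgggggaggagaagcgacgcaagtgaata
Axin2: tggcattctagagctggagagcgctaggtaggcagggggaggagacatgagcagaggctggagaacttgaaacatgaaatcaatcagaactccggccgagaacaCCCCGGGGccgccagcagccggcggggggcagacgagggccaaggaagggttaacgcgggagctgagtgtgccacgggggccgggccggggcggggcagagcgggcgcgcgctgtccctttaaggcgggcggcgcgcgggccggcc
Lef1 held 1 match, CTTTG, starting 161 bases before the start, and Axin2 (chr11:108920099-108920348, plus strand) held 1 match to CCCNNGGG, starting 146 bases before it. Of 32851 promoters, 48.6% held CTTTG, 13.0% CAGCTG, 17.2% CAGGTG, 3.2% GTAAACA and 11.8% CCCNNGGG in these 250 bases. The peaks are on build mm8 and were not placed on these sequences.

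Around Tcf7, 1 site was listed in all 5 E2A lists, at about -66.0 kb. It had a score of 20 in EBF-/- cells (chr11:52161882-52162081), 20 in RAG1-/- cells (chr11:52161887-52162086), 58 and 29 after 1 and 6 h of E47-ER, and 25 in A12 cells. It was the only site near members found in all 5, and so held 1 of the 20 E2A peaks of RAG1-/- cells near members. Over the whole genome, 8.4% of the E2A peaks of RAG1-/- cells had a peak of the other 4 lists within 500 bases. H3K4me2 overlapped it in EBF-/- (49) and RAG1-/- cells (88), with H3K4me1 (45) and H3K9/14ac (25) in RAG1-/- cells. In E2A-/- cells H3K4me1 was listed there with bHLH-ER (29) and after 1 h of E47-ER (48), while after 6 h of E47-ER the nearest H3K4me1 peak (25) lay beside it at -66.7 kb. A further site at about -40.6 kb was listed in every E2A list except that of EBF-/- cells, with scores of 16 in RAG1-/- cells, 14 and 6 after 1 and 6 h of E47-ER, and 10 in A12 cells.

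At about -30.6 kb from the Tcf7 probe, H3K4me2 was listed in EBF-/- (60) and RAG1-/- cells (141) with H3K9/14ac (22 and 20). RAG1-/- cells also had H3K4me3 (34), H3K27me3 at -29.8 kb (42) and an EBF1 peak (17, chr11:52126808-52127007, -30.9 kb). Neither H3K4me3 nor H3K27me3 was listed there in EBF-/- cells, whose H3K27me3 list held no peak near any member. Of all H3K4me3 and H3K27me3 peaks of RAG1-/- cells, 66.0% and 13.4% overlapped one of EBF-/- cells. The H3K4me3 peak ranked at 83.8% of its list. EBF-/- cells, which had the higher Tcf7 signal, had H3K4me2 (77) and H3K9/14ac (44) at about -13.0 kb, where no list of RAG1-/- cells held a histone peak. Of the H3K4me2 and H3K9/14ac peaks of EBF-/- cells, 62.4% and 74.1% overlapped one of RAG1-/- cells over the whole lists. H3K4me3 at 20.3 kb (34 in EBF-/-, 286 in RAG1-/- cells) lay nearest to a probe of Skp1, 13.7 kb away, with an E2A peak in both cell types (19 and 10).

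**Figure D4:**
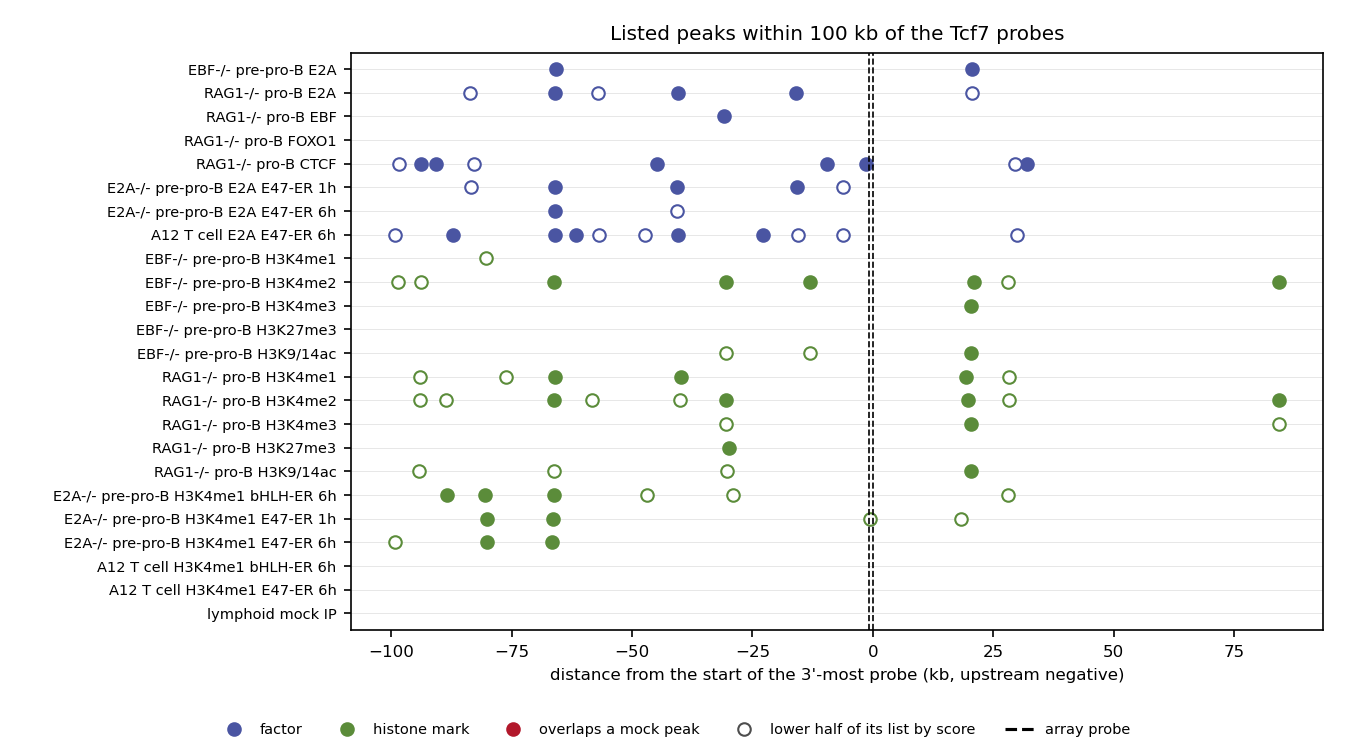
Each circle is a listed peak, placed by its distance from the 3′-most Tcf7 probe in kb (horizontal axis) and by its list (vertical axis), open where its score is below the median of its list. The column at -66.0 kb holds all 5 E2A lists.

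Around Axin2, the most widely listed site was also a peak of the mock immunoprecipitation. At about 61.3 kb, chr11:108828055-108828114 was listed in the mock library (score 43), and peaks of 8 of the other 23 lists overlapped it. The overlapping peaks were E2A in EBF-/- cells (107, second in its list), after 1 and 6 h of E47-ER (80 and 39) and in A12 cells (43), EBF1 in RAG1-/- cells (80, first in its list), H3K27me3 in RAG1-/- cells (332, first in its list), H3K4me3 in EBF-/- cells (56) and H3K4me1 in A12 cells with bHLH-ER (108, second in its list). Every E2A list except that of RAG1-/- cells thus had a peak there. Of the 807 mock peaks, 2.7% were overlapped by 8 or more lists. Such peaks are not read here as binding or as a histone mark. Without them, 19 peaks remained near Axin2.

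The remaining Axin2 peaks of the B-lineage lists were nearly all of RAG1-/- cells. Of these, 5 were of CTCF, which was not mapped in EBF-/- cells. The E2A and H3K4me1 lists of RAG1-/- cells were also larger, with 11846 and 23054 peaks against 4531 and 7544 in EBF-/- cells. Upstream of the probe RAG1-/- cells had E2A (score 28, chr11:108734110-108734309, -32.5 kb), H3K4me1 at -31.9 kb (48), H3K4me3 and H3K9/14ac at -29.7 kb (172 and 34) and H3K4me2 at -29.2 kb (148). EBF-/- cells had only H3K4me2 at -29.8 kb (55). Over the whole lists, 66.0% of the H3K4me3 peaks, 80.0% of the H3K9/14ac peaks and 12.1% of the H3K4me1 peaks of RAG1-/- cells overlapped one of EBF-/- cells. Apart from the mock site, the E47-ER and bHLH-ER lists of E2A-/- cells held no peak in the window. The Axin2 signal was well above background only in the RAG1-/- samples.

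**Figure D5:**
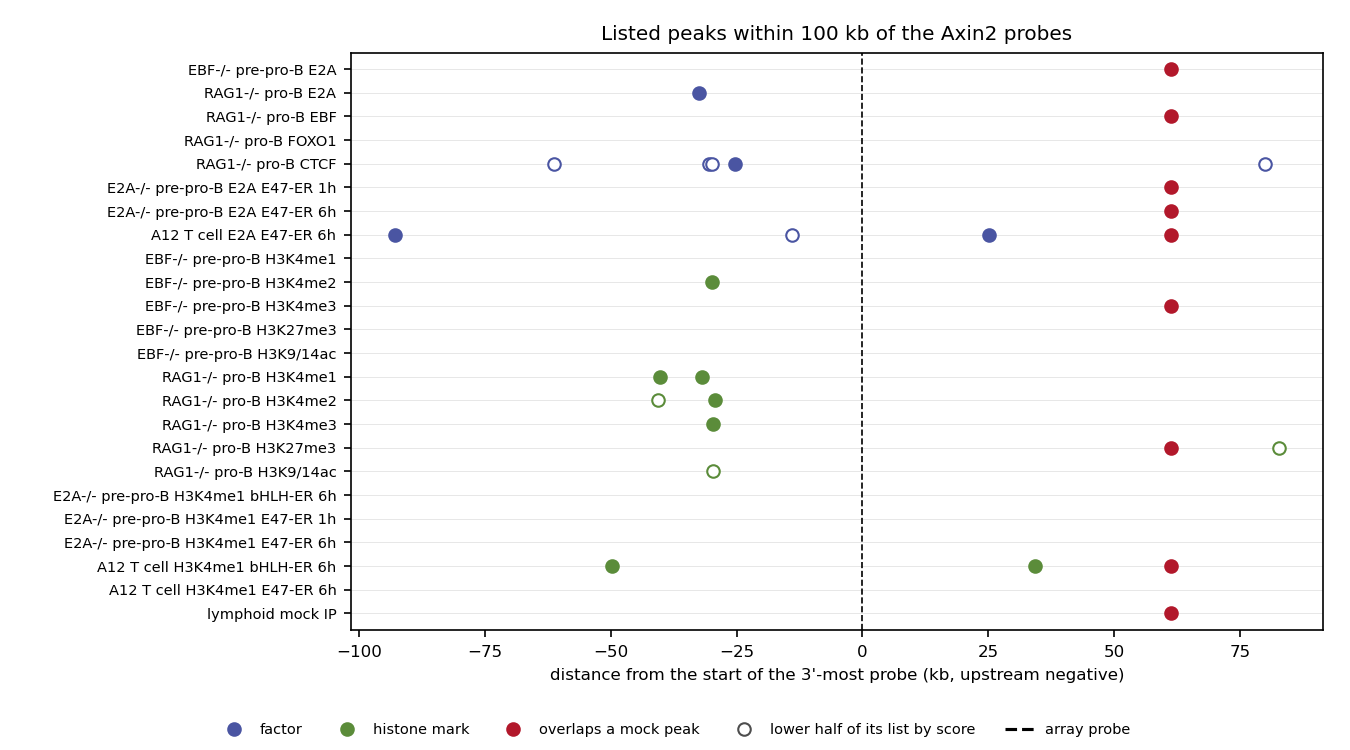
Each circle is a listed peak, placed by its distance from the Axin2 probe in kb (horizontal axis) and by its list (vertical axis), red where it overlaps a mock peak and open where its score is below the median of its list. The red column at 61.3 kb holds the mock list and 8 others, and the peaks near -30 kb are those of RAG1-/- cells with H3K4me2 of EBF-/- cells.

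Near Ctnnb1, E2A was listed at about -26.7 kb in EBF-/- (22, chr9:120782120-120782319), RAG1-/- (13), E47-ER 6 h (8) and A12 cells (6). H3K9/14ac lay beside it at -26.1 kb in EBF-/- (130) and RAG1-/- cells (77), and H3K4me3 at -26.0 and -25.9 kb in the same order (37 and 267). Both cell types thus had these marks listed there. After E47-ER, E2A was listed at -12.2 kb at 1 h (15) and 6 h (6), and beyond the probes at 1.5 kb at 1 h (15) and at 1.4 kb in A12 cells (20).

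Near Apc, E2A of EBF-/- and of RAG1-/- cells was listed at 4 and 7 places, of which 3 and 4 lay beyond the 3′ end of the probes, nearest to probes of Srp19, Reep5 or Pkd2l2. Upstream of the 5′-most Apc probe, at about -100.5 kb, H3K4me3 was listed in EBF-/- (47) and RAG1-/- cells (237) and H3K9/14ac in both (158 and 108). At -62.5 kb RAG1-/- cells had E2A (14) and CTCF (44), with E2A after 1 h of E47-ER (7). The highest-scoring E2A peak of the window in RAG1-/- cells (49) lay at 94.2 kb, 3.3 kb from a probe of Pkd2l2.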

How the data were processed

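The deposited array intensity values were background-subtracted and dye-normalised within each array by the scanner software (Feature Extraction 9.5.3.1), as the file headers record; per the file headers they are not normalised between arrays. RNA of 6 samples was hybridised on 4 two-colour arrays of a single slide, with 1 sample of each group in each dye. The channels without a label were not used. Signals were put on a log2 scale and quantile normalised over 6 channels, and 22132 probes well above background in both samples of a group were kept. limma 3.58.1 (R 4.3.3) fitted group and dye with array as a random block (correlation 0.083) and a trended prior. The number of arrays limits the precision, and no label says whether a group's samples are different animals or cultures, so p-values may measure technical spread. Peak lists and their scores are the authors' (HOMER, build mm8, per the submitters' processing notes), with 1 library each. Named genes were all probes of the 5 members, up to 2 called genes in each direction per list and comparison, and the 5 genes nearest to each member whose range passed 1 on the log2 scale. The 5 members and all gene lists were chosen with earlier results of these data known. Gene symbols come from RefSeq (GRCm38.p6), by accession for 23374 of 41174 probes, by symbol for 6733 and by synonym for 2919, while 7869 kept the file's name and 279 had none. Among 27 listed genes with several kept probes, none had probes called in opposite directions, and 6, 10 and 7 had called beside uncalled probes in the 3 comparisons in the order of the report. Alternatives are those of the closing section.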

Additional observations from a re-analysis of the deposited data

How the results depend on the processing

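The fits were repeated under 8 alternatives and without each of the 6 samples, where a lone sample was assumed to vary like the other groups. Comparisons are given in the order EBF-/- minus E2A-/-, RAG1-/- minus EBF-/-, RAG1-/- minus E2A-/-. Without the filter on dim probes 2606 probes and 11 listed genes were called in the first, and without the trend in the prior 2669 and 13, fewer than the 4595 and 23 reported. With one probe per gene 1, 3 and 3 member probes were called, since at most 1 per gene was tested. Leaving out 1 sample gave from 658 to 7969, 3301 to 8838 and 4871 to 9732 called probes, from 1 to 4, 1 to 5 and 3 to 5 member probes, and from 2 to 31, 16 to 35 and 19 to 27 listed genes. The lowest counts of the first 2 comparisons came without an EBF-/- sample. With the replicate block in place of the dye term, 3, 6 and 5 member probes and 18, 29 and 29 listed genes were called. That block moved no count by over 1.5 times. Differences between replicates 1 and 2 correlated at -0.41 between E2A-/- and EBF-/- cells. They correlated at 0.19 between E2A-/- and RAG1-/- cells and at 0.02 between EBF-/- and RAG1-/- cells. E2A-/- replicate 2 shared an array with EBF-/- replicate 1, and E2A-/- replicate 1 with RAG1-/- replicate 1. The part of the shared arrays in these correlations was not tested.

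The large member changes kept their direction and shrank under normexp background correction, in the same order of comparisons from 5.72, -2.89 and 2.83 to 2.60, -1.87 and 0.73 at Tcf7 A_52_P244702 and from 4.11, -2.44 and 1.67 to 1.42, -1.10 and 0.33 at Tcf7 A_52_P244711. In the last 2 comparisons they shrank from 3.57 and 3.69 to 1.03 and 1.20 at Axin2, and at Lef1 A_51_P420400 from 9.14 and 6.53 to 6.08 and 5.30. That correction added an offset of 50 to every signal before the log2 step, which by arithmetic makes changes from dim signals smaller. How much of the shrinkage the offset made was not tested. Of the member changes that turned sign, none was called in the reported fits. With normexp background correction, Apc A_52_P633752 read 0.01 in the second and 0.01 in the last comparison and Apc A_51_P469822 read 0.00 in the second. With 75th percentile scaling, Apc A_52_P633752 read 0.10 in the first, and Ctnnb1 A_52_P424585 and Apc A_52_P675171 read 0.01 and 0.00 in the last. Without 1 sample at a time, the first comparison ran from -3.33 to 2.16 at Lef1 A_51_P501145 and from -0.06 to 0.30 at Axin2, and the last from -0.05 to 0.00 at Ctnnb1 A_52_P424585. For Apc in the order of comparisons, A_52_P633752 ran from -0.87 to 0.71, -1.07 to 0.51 and -0.89 to 0.23, A_52_P675171 from -0.06 to 0.15, -0.24 to 0.12 and -0.20 to 0.16, A_51_P469822 from -0.28 to 0.37, -0.14 to 0.35 and -0.16 to 0.49, and A_51_P273378 from -0.03 to 0.49, -0.35 to 0.21 and -0.13 to 0.43. The cause was not tested. Over all member probes and settings, 404 values kept direction and call, 44 lost the call, 31 turned sign and 4 gained a call.

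Within 50 kb lay 193 of the 336 peaks near members, 182 had a score at or above the median of their list, and 328 did not overlap a mock peak. Shared E2A peaks numbered 3, and 4, 2 and 2 with centres within 500 bases, within 50 kb and by the higher scores. With 2 samples a group and dim signals in E2A-/- and EBF-/- cells, the size of the Lef1, Tcf7 and Axin2 changes rests partly on bounds.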
